A study of Homo sapiens with 12 samples.

Results

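The 10 genes described here are the AP-1 family members FOS, FOSB, FOSL1, FOSL2, JUN, JUNB, JUND and ATF3 and the immediate early genes EGR1 and IER3. They were taken by symbol from the 25435 rows of the count table, and all 10 were found there. AP-1 is a dimeric transcription factor in which a Fos or ATF protein pairs with a Jun protein through a leucine zipper, and the dimer binds DNA at short palindromic sites. Immediate early genes are transcribed within minutes of a growth factor, cytokine or stress signal, without new protein synthesis, and their messenger RNAs are short-lived. In gastric and other carcinoma cells FOSL1 and JUN are known as nuclear targets of the ERK and JNK kinase pathways, and EGR1 of the serum response factor (SRF).

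The libraries, 12 in 6 groups of 2, were made with an mRNA kit from total RNA of LMSU, a line of gastric cancer origin labelled with the p53 variant R175H. The knockout arm, labelled without doxycycline, holds a construct named sg-1 labelled as without mutant p53 (p53 knockout) and a construct named V2 labelled as with it (knockout control), both marked GFP. The knockdown arm, labelled with doxycycline throughout, holds 2 hairpins against p53 labelled as without mutant p53 (shRNA 1 and shRNA 2), and a scramble hairpin and a vector labelled as with it. All groups share the LMSU background and Ham's F-10 medium. The labels say neither that replicate libraries are from separate cultures nor whether the knockout cells are 1 clone, so p values measure the spread between these libraries, which may be technical.

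Library totals ran from 9738094 to 16823246 counts. Levels are CPM from edgeR, in which each library total is scaled by its TMM factor. All 10 genes passed the filter on low counts. Replicates varied more in the knockout arm (biological coefficient of variation 15.6%) than in the knockdown arm (3.07%). The tests take the spread of each gene from 1 fit over all 12 libraries, in which the common value was 9.55%. A fit on the 8 knockdown-arm libraries alone called 5 to 7 of the 10 genes in each comparison within that arm. Over the whole table that fit called 4091 to 6066 genes. Markers of gastric epithelium were mostly near 0: TFF1, TFF2, GKN2 and GATA4 had no count in any of the 12 libraries, and EPCAM reached at most 0.170 CPM and CDH1 at most 0.162 CPM. The keratin genes KRT8 and KRT18 were at 63.9 to 208 CPM and 185 to 283 CPM. The mesenchymal gene VIM was at 6814 CPM or more in every library, so these markers do not set the line apart as epithelial. The leukocyte gene PTPRC reached at most 0.270 CPM and the endothelial gene CDH5 had no count, although CD68, on the leukocyte list, was at 187 to 451 CPM.

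The sequence before the transcription start was read for the genes with an entry in the RefSeq promoter table (GRCh38.p14), which were 8 of the 10, with 2 start sites for ATF3. Within 250 bases before the start, both strands were searched for the CArG box bound by SRF, the AP-1 site TGACTCA (TRE), the cyclic AMP element TGACGTCA (CRE), its core TGACG, which a full CRE also holds, and the variant TGACATCA known from the JUN promoter. The gene's own strand was searched for TATAA. Shown are the windows of EGR1 and JUN, which of the 8 genes differed most between the hairpins. Also shown are those of ATF3, which shares an element with JUN, and of JUNB. Like EGR1, JUNB was called higher with shRNA 2 than with shRNA 1 and than in vector. Capitals mark the CArG boxes in EGR1, TGACATCA in JUN and in the ATF3 window at the first of its 2 start sites, and TGACG and TATAA in JUNB. The windows are chr5:138465229-138465478 on the plus strand for EGR1, chr1:58784048-58784297 on the minus strand for JUN, chr1:212565157-212565406 on the plus strand for ATF3 and chr19:12791236-12791485 on the plus strand for JUNB, each printed 5′ to 3′ on its gene's strand.
EGR1: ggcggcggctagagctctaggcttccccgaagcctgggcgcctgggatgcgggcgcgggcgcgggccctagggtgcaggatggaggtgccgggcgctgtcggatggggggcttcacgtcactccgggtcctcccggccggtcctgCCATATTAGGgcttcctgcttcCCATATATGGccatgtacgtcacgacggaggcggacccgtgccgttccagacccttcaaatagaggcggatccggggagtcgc
JUN: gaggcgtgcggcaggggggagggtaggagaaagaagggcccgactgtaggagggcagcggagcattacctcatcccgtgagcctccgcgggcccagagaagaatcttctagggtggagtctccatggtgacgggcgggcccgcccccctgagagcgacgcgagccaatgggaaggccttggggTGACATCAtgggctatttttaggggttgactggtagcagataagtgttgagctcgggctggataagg
ATF3: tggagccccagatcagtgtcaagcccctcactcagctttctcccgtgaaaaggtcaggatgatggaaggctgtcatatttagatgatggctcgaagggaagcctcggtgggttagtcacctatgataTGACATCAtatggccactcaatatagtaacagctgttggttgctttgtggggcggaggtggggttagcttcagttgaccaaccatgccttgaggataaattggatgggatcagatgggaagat
JUNB: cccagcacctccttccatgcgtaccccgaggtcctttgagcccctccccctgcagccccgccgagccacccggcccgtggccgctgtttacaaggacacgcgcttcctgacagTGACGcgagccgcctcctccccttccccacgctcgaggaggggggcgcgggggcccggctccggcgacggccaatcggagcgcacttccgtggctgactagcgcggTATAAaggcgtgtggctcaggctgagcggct

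EGR1 was the only one of these genes with CArG boxes in its window, 2 of them, and 1.16% of the 35116 promoter windows of the table hold at least 1. TGACATCA lay at positions -67 to -60 from the start in JUN and at -123 to -116 in ATF3, and 2.37% of windows hold it. A full CRE was found in JUND alone, at -200 to -193, against 1.65% of windows. The core TGACG was found in 7 of the 8 genes, all but ATF3, beside 21.2% of windows, and TATAA in FOS, FOSB, JUNB, JUND and the second ATF3 window, beside 13.6%. No TRE was found in these windows, while 4.2% of all windows hold one. These matches are letters in a window and do not show binding. Only 250 bases before the start were searched, so a gene without a match may hold one further away. FOSL1 and IER3 had no entry and were not searched.

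Per kilobase of transcript, FOSL1 was the most abundant of the 10 genes in both knockout-arm groups, and FOSL1 and IER3 were the 2 highest in every knockdown-arm group. In bulk RNA of this kind, fewer cells expressing a gene and less of its RNA per cell cannot be told apart. FOSL1, which encodes Fra-1, had 495 ± 48.2 CPM per kilobase in p53 knockout, 562 ± 87.8 in knockout control, 256 ± 0.338 with shRNA 1, 318 ± 7.10 with shRNA 2, 310.2 ± 16.4 in scramble and 389 ± 5.86 in vector (SD, n = 2 each). FOSL1 supplied between 82.5% and 90.5% of the summed Fos family level per kilobase in every group mean, and FOSL2, which encodes Fra-2, supplied nearly all of the remainder. FOS itself, the classical serum-induced member, supplied at most 0.726% and FOSB at most 0.0871%, both in scramble. The Jun family was more evenly shared, and its make-up differed between the arms. JUN supplied 41.3 ± 0.0205% in p53 knockout and 43.7 ± 1.80% in knockout control, and 17.5 ± 0.183%, 10.9 ± 0.205%, 13.8 ± 1.08% and 18.4 ± 0.854% with shRNA 1, with shRNA 2, in scramble and in vector. JUNB supplied 36.4 ± 0.864% in p53 knockout and 34.2 ± 1.78% in knockout control, and between 49.9% and 60.8% in the knockdown-arm groups.

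**Figure D1:**
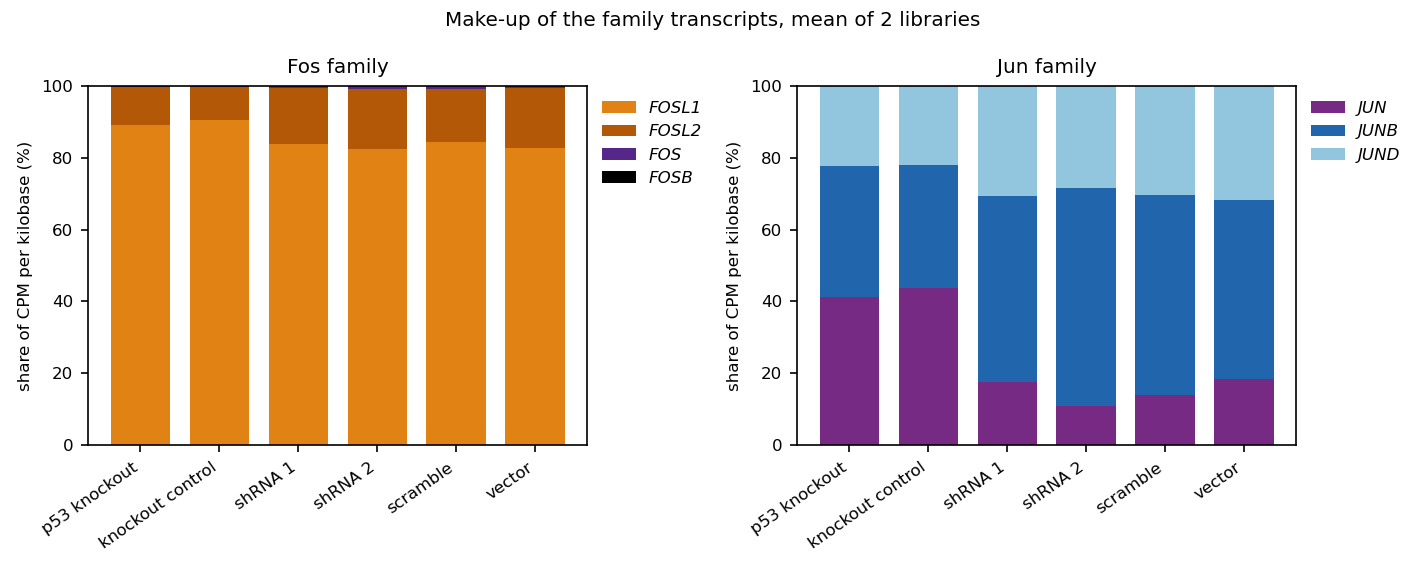
Share of each member in the summed CPM per kilobase (%, y axis) of the Fos family (left) and of the Jun family (right) in the 6 groups (x axis), as means of 2 libraries. FOSL1 fills 82.5% to 90.5% of the Fos bars, and JUN fills 41.3% and 43.7% of the Jun bars of the knockout arm against 10.9% to 18.4% in the knockdown arm.

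The 2 arms stood at different levels for several members. EGR1, a zinc finger transcription factor, had 10.3 and 12.4 CPM in p53 knockout and 9.18 and 9.11 CPM in knockout control, while the knockdown-arm libraries ran from 61.3 to 163 CPM. JUN had 289 and 309.9 CPM in p53 knockout and 352 and 306 CPM in knockout control, against 94.9 to 139 CPM in the knockdown arm. FOS lay at 1.56 to 2.02 CPM in knockout-arm libraries and at 3.11 to 6.62 CPM in those of the knockdown arm. ATF3 lay at 13.1 to 16.3 CPM and at 5.35 to 10.5 CPM. For these 4 genes the arms did not overlap, nor did they for FOSL1, JUNB and JUND. The share of all tested genes whose arms lie apart was not counted, so this is not read as a trait of these genes. The arms differ in doxycycline and in construct, so what sets their levels apart cannot be told apart here. The summed level of 8 heat shock genes was 1394 to 1442 CPM in p53 knockout and 1421 to 1494 CPM in knockout control, against 539 to 614 CPM in the knockdown arm. The summed level of 15 fibroblast and mesenchymal markers was 11813 to 12203 CPM in p53 knockout and 11484 to 13575 CPM in knockout control, against 44347 to 60647 CPM in the knockdown arm. The part of either list in the difference was not tested.

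**Figure D2:**
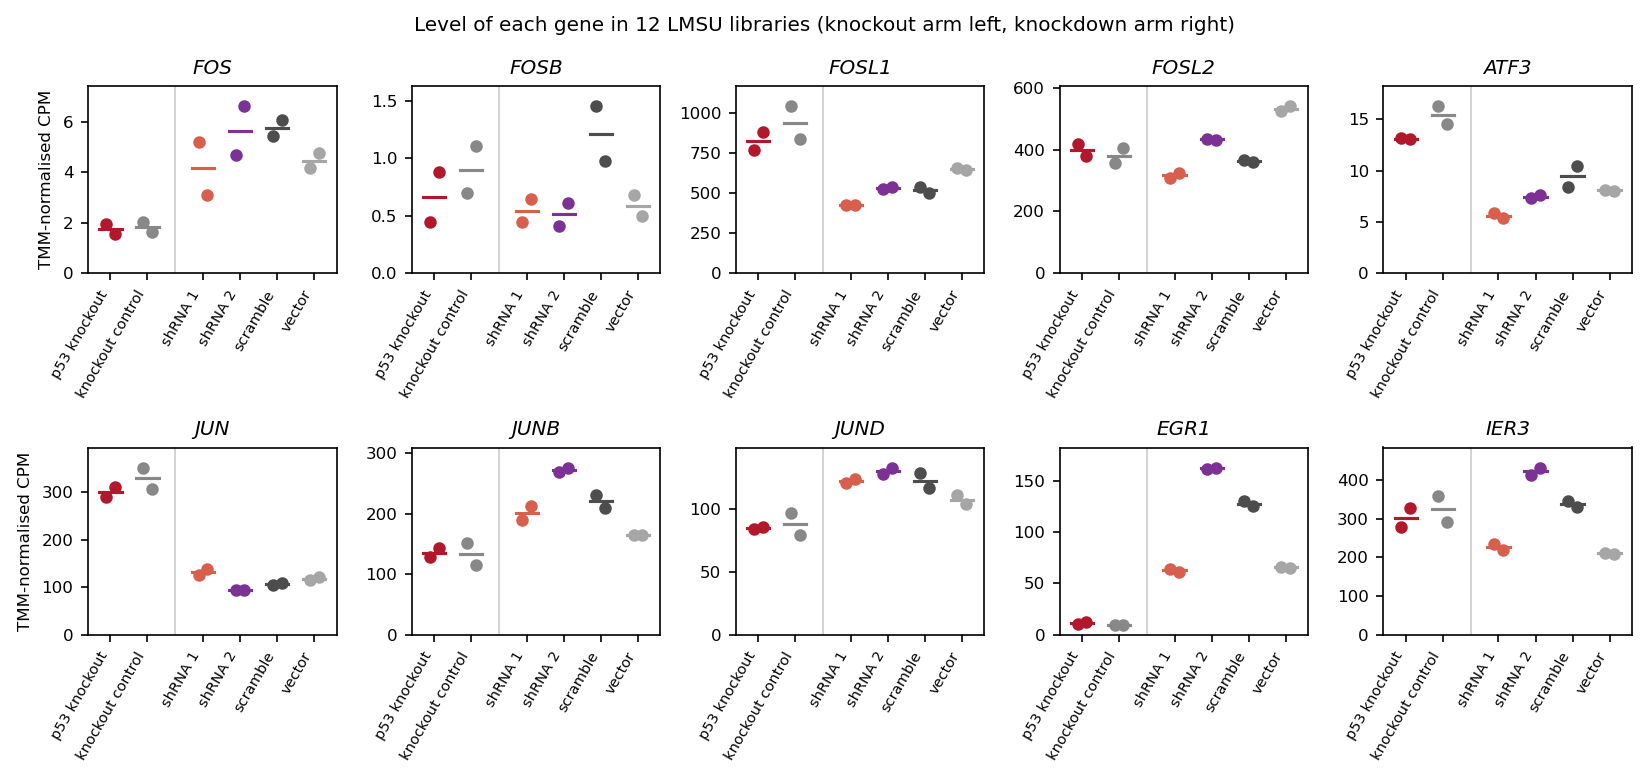
TMM-normalised CPM (y axis, from 0) of each of the 10 genes in the 12 libraries (points) by group (x axis), with the group mean as a bar; the grey line separates the knockout arm from the knockdown arm. EGR1 and IER3 are high with shRNA 2 and in scramble and low with shRNA 1 and in vector, and the 4 knockout-arm EGR1 points lie between 9.11 and 12.4 CPM.

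The first comparison asks what differs between cells with the knockout construct and their control. None of the 10 genes was called in p53 knockout against knockout control by edgeR's quasi-likelihood test (adjusted p below 0.05), beside 0.0150% of the 13365 tested genes called. At an unadjusted p below 0.05 there was 1 member, EGR1, beside 859 genes over the whole table, and DESeq2 also called 0 members. EGR1 had a log2 fold change of 0.31 (SE 0.115, adjusted p 0.72), and both knockout libraries lay above both control libraries. ATF3, a stress-induced repressor that is also a known target gene of p53, had 13.1 and 13.1 CPM in p53 knockout against 16.3 and 14.6 CPM in knockout control. Its log2 fold change was -0.24 (SE 0.129, adjusted p 0.78). The other 8 members had values between -0.39 for FOSB and 0.07 for FOSL2, and their libraries overlapped between the groups. The share of all tested genes whose libraries lie apart in this comparison was not counted. That the EGR1 and ATF3 libraries lie apart is thus not read as a trait of these genes. FOSL1 had 769 and 883 CPM in p53 knockout against 1042 and 835 CPM in knockout control (log2 fold change -0.18, SE 0.106, adjusted p 0.78). The count rested on 1 control library: without replicate 2 of the knockout control, FOSL1 (-0.34, adjusted p 0.0051), JUN (-0.23, adjusted p 0.032) and IER3 (-0.24, adjusted p 0.041) were called lower, in a fit that called 4135 genes over the whole table.

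Against scramble, shRNA 1 lowered 3 of the 10 members and raised 0, beside 9.41% of tested genes called, 5.01% lower and 4.40% higher. EGR1 had 64.3 and 61.3 CPM with shRNA 1, against 130.1 and 125 CPM in scramble. The groups lay far apart relative to their spread, and EGR1 fell by 1.02 on the log2 scale (SE 0.0917, adjusted p 9.3e-05), a larger absolute change than in all but 3.34% of the tested genes. IER3, a short-lived immediate early gene that is known to act in survival signalling and to respond to NF-kB, had 234 and 220.1 CPM with shRNA 1, against 345 and 331 CPM in scramble. It fell by 0.57 (SE 0.108, adjusted p 0.0072). ATF3 had 5.84 and 5.35 CPM with shRNA 1, against 8.41 and 10.5 CPM in scramble, and fell by 0.75 (SE 0.157, adjusted p 0.012). JUN was at 0.32 (SE 0.0933, adjusted p 0.056), FOSL1 at -0.28 (adjusted p 0.14), FOSL2 at -0.20 (adjusted p 0.19), FOS at -0.44 (adjusted p 0.33), JUNB at -0.13 (adjusted p 0.59) and JUND at -0.0024 (adjusted p 0.996), none of them called. The IER3 call was lost without any 1 of the 4 compared libraries (adjusted p 0.052 to 0.095), and the ATF3 call without replicate 2 of scramble (0.13) or without replicate 1 (0.074) or 2 (0.11) of shRNA 1, whereas EGR1 was called each time.

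Against scramble, shRNA 2 raised 1 of the 10 members, EGR1, and lowered 0, beside 7.74% of tested genes called, 3.58% higher and 4.15% lower. EGR1 had 162 and 163 CPM with shRNA 2, above the 130.1 and 125 CPM of scramble, and rose by 0.35 (SE 0.0888, adjusted p 0.036). IER3 had 414 and 432 CPM with shRNA 2, against 345 and 331 CPM in scramble, a log2 fold change of 0.33 (SE 0.107, adjusted p 0.093). JUNB, a Jun protein that often restrains JUN, had 269 and 276 CPM with shRNA 2, against 230.5 and 210.1 CPM in scramble (0.31, SE 0.120, adjusted p 0.15). FOSL2 was at 0.25 (adjusted p 0.10), JUN at -0.16 (adjusted p 0.37) and ATF3 at -0.34 (adjusted p 0.19). FOSL1 (0.04), FOS (-0.02) and JUND (0.09) lay near 0. The EGR1 call was lost without any 1 of the 4 compared libraries (adjusted p 0.17 to 0.26). It was also lost with the replicate number as a block (adjusted p 0.068) and with no filter on low counts (0.067).

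FOSB was the rarest of the 10 genes. Its 12 libraries held 5 to 18 counts each, and only 4 libraries, both of scramble among them, reached the level of the filter, so its test in the hairpin comparisons rests on the group where it was highest. FOSB had 0.449 and 0.643 CPM with shRNA 1, 0.409 and 0.616 CPM with shRNA 2, 1.46 and 0.973 CPM in scramble and 0.679 and 0.495 CPM in vector. On the opposite strand FOSB overlaps ERCC1, which stood at 46.5 to 105 CPM in the group means, and the strand setting of the counting is not given in the sources used here. JUNB overlaps HOOK2 in the same way, at 15.1 to 24.5 CPM in the group means.

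**Figure D3:**
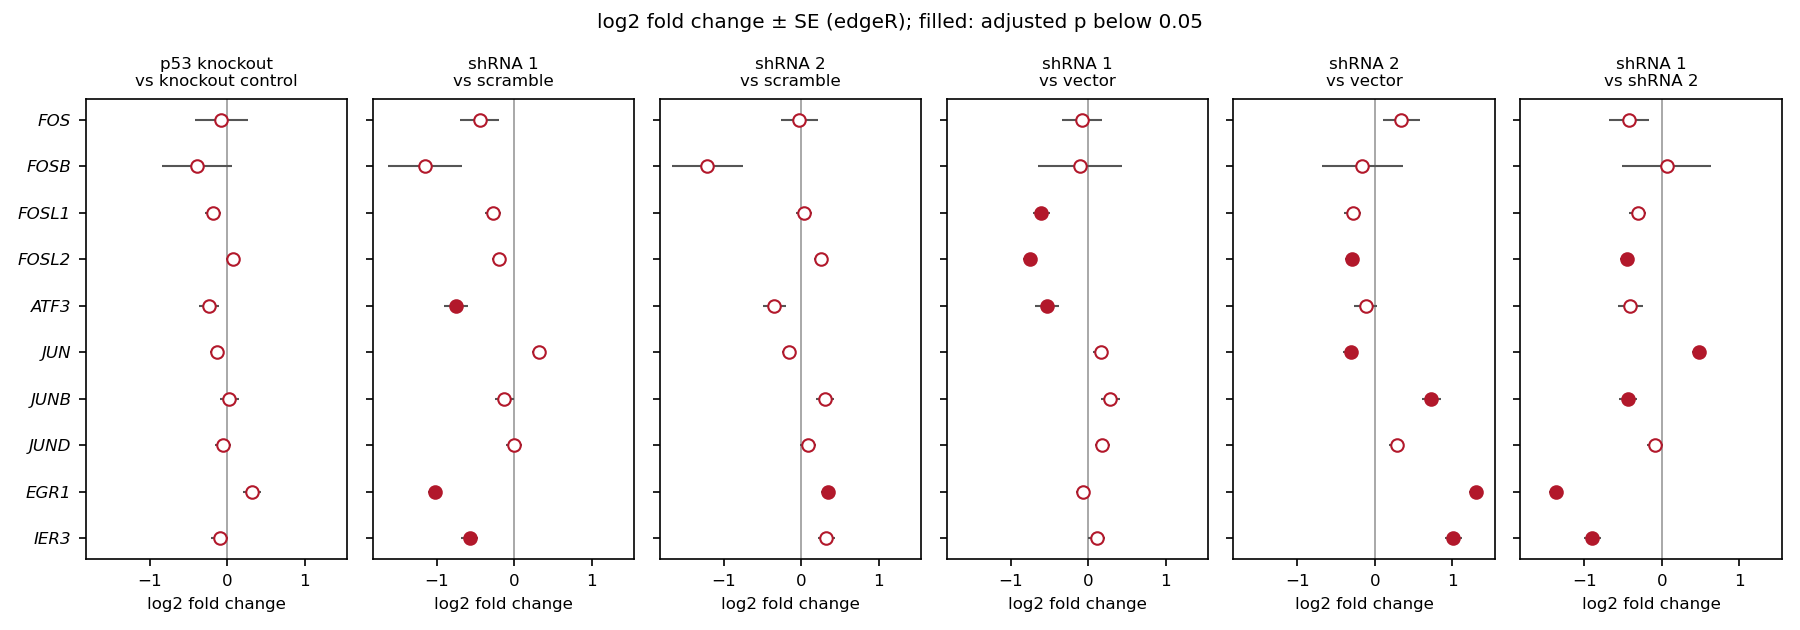
log2 fold change ± SE (x axis) of the 10 genes (y axis) in 6 comparisons, fitted with edgeR over all 12 libraries; filled points have an adjusted p below 0.05. EGR1 is at -1.02 with shRNA 1 and 0.35 with shRNA 2 against scramble, and no point is filled in the knockout panel.

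The direct comparison of the hairpins shows where the labelled knockdowns differ. In shRNA 1 against shRNA 2, 5 of the 10 members were called, 1 higher and 4 lower, beside 14.3% of tested genes called, 7.07% higher and 7.21% lower. EGR1 was lower with shRNA 1 by 1.37 on the log2 scale (SE 0.0920, adjusted p 2.1e-05), the gene with the fifth smallest p of the whole table. IER3 was lower by 0.90 (SE 0.108, adjusted p 3.9e-04), FOSL2 by 0.45 (SE 0.0862, adjusted p 0.0053) and JUNB by 0.44 (SE 0.120, adjusted p 0.033). JUN went the other way: it had 126 and 139 CPM with shRNA 1 and 94.9 and 95.0 CPM with shRNA 2, a difference of 0.48 (SE 0.0937, adjusted p 0.0063). FOSL1 was at -0.31 (adjusted p 0.075), ATF3 at -0.41 (adjusted p 0.12), FOS at -0.42 (adjusted p 0.32) and JUND at -0.09 (adjusted p 0.61). The calls of EGR1 and IER3 were kept without any 1 of the 4 libraries. Those of JUNB (adjusted p 0.090 to 0.24) were lost in each case. JUN was lost without either shRNA 2 library or replicate 2 of shRNA 1 (0.060 to 0.069), and FOSL2 without replicate 1 of either hairpin (0.067 and 0.053).

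The vector libraries give a second control, and the members did not stand the same way against it. In shRNA 1 against vector 3 members fell and 0 rose, beside 13.0% of tested genes called, 7.26% lower and 5.78% higher. FOSL2 had 309 and 325 CPM with shRNA 1, against 525 and 542 CPM in vector, and fell by 0.75 (SE 0.0863, adjusted p 2.8e-04). FOSL1 had 427 and 428 CPM with shRNA 1, against 656 and 642 CPM in vector, and fell by 0.60 (SE 0.107, adjusted p 0.0043; 0.051 without replicate 1 of shRNA 1). ATF3 fell by 0.53 (SE 0.158, adjusted p 0.049), a call lost without any 1 of the 4 libraries (adjusted p 0.16 to 0.23), with the replicate block (0.073), with no filter (0.057) and with DESeq2 (0.14). EGR1 (-0.06, adjusted p 0.69) and IER3 (0.11, adjusted p 0.55), which fell against scramble, were not called here, and JUN was at 0.16 (adjusted p 0.29).

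In shRNA 2 against vector 3 members rose and 2 fell, beside 21.0% of tested genes called, 9.21% higher and 11.7% lower. EGR1 had 162 and 163 CPM with shRNA 2, against 65.9 and 65.5 CPM in vector, and rose by 1.31 (SE 0.0908, adjusted p 3.4e-06). IER3 had 414 and 432 CPM with shRNA 2, against 211 and 209 CPM in vector, and rose by 1.01 (SE 0.108, adjusted p 6.3e-05). JUNB rose by 0.72 (SE 0.121, adjusted p 0.0014). FOSL2 fell by 0.30 (SE 0.0856, adjusted p 0.029) and JUN by 0.32 (SE 0.0932, adjusted p 0.033). FOSL1 was at -0.29 (adjusted p 0.079), JUND, the most stably expressed Jun protein in many cells, at 0.28 (adjusted p 0.077), and ATF3 at -0.12 (adjusted p 0.62). The FOSL2 and JUN calls were lost without any 1 of the 4 libraries (adjusted p 0.10 to 0.17 and 0.099 to 0.19), and the JUN call also with the replicate block (0.054) and with DESeq2 (0.057).

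The controls themselves differed in 4 of the 10 members. In scramble against vector EGR1, IER3 and JUNB were higher and FOSL2 was lower, beside 15.3% of tested genes called, 7.10% higher and 8.16% lower. EGR1 differed by 0.96 (SE 0.0905, adjusted p 4.5e-05) and IER3 by 0.68 (SE 0.108, adjusted p 0.0014). JUNB had 230.5 and 210.1 CPM in scramble, against 165 and 165 CPM in vector, a log2 fold change of 0.42 (SE 0.120, adjusted p 0.038; 0.10 to 0.23 without any 1 of the 4 libraries and 0.061 with the replicate block). FOSL2 had 365 and 362 CPM in scramble, against 525 and 542 CPM in vector (-0.55, SE 0.0859, adjusted p 0.0013). FOSL1 was at -0.33 (adjusted p 0.062). Both controls are labelled as keeping mutant p53, and no member was called in the same direction with both hairpins against both controls. The hairpin comparisons share their control libraries, so each is given by its own values.

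The order of the levels in the knockdown arm can be read from these contrasts. EGR1 ran from shRNA 2 over scramble to vector and shRNA 1, and of these neighbours vector and shRNA 1 were not called apart. IER3 ran from shRNA 2 over scramble and shRNA 1 to vector, and only scramble and shRNA 1 were called apart as neighbours. JUNB had the same order as IER3, with no neighbours called apart. FOSL2 ran from vector over shRNA 2 and scramble to shRNA 1, and only vector and shRNA 2 were called apart as neighbours. FOSL1 had the order of FOSL2, JUN ran from shRNA 1 over vector and scramble to shRNA 2, and ATF3 from scramble over vector and shRNA 2 to shRNA 1, all with no neighbours called apart.

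**Figure D4:**
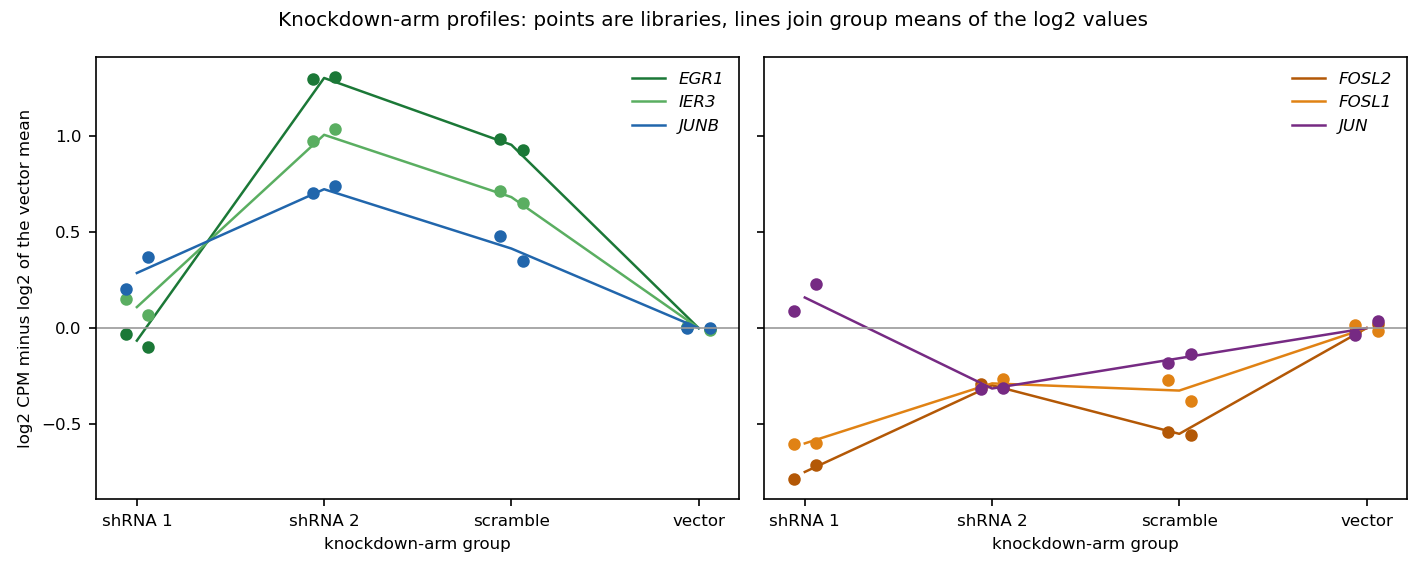
log2 CPM minus log2 of the vector mean (y axis) in the 4 knockdown-arm groups (x axis) for EGR1, IER3 and JUNB (left) and FOSL2, FOSL1 and JUN (right); points are libraries and lines join the group means of the log2 values. The left profiles peak with shRNA 2, and the fitted EGR1 change against vector is 1.31 with shRNA 2 and -0.06 with shRNA 1.

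Over the 8 knockdown-arm libraries, which share their groups, the log2 CPM of EGR1 and IER3 had a Pearson r of 0.988, FOSL1 and FOSL2 one of 0.950, JUNB and IER3 one of 0.912, and JUN and EGR1 one of -0.932. These values describe group differences more than single libraries, since there are 4 groups of 2. By the same measure the genes most like EGR1, among 9994 with a mean of at least 5 CPM, were GPNMB, RND3 and HOXB2 (r 0.997 to 0.998), and those most like IER3 were MMP14, FBXO32 and GPNMB (0.994 to 0.996). The nearest to JUNB were STX1A, TTLL4 and SKI (0.992 to 0.998). The nearest to FOSL2 were HRAS, RERE and UBFD1 (0.988 to 0.995), those to JUN were TMEM14A, MAN2C1 and PTCD2 (0.980 to 0.987), and those to ATF3 included TRAPPC4 and OSBP (0.971 to 0.974). For FOSL1 they were HK1, LMNA and C1orf198 (0.993 to 0.996). All of these were picked as the highest r of 9994 genes over 4 groups of 2, so an r near 1 is not evidence of a link.

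The knockout effect minus the mean hairpin effect against scramble was tested as 1 contrast. None of the 10 members was called, beside 1.10% of tested genes, and EGR1 was the 1 member with an unadjusted p below 0.05, beside 1957 genes. EGR1 was at 0.65 (SE 0.139, adjusted p 0.052), and DESeq2 called it (adjusted p 0.046). The mean hairpin effect on EGR1 averages -1.02 with shRNA 1 and 0.35 with shRNA 2, called in opposite directions, and is a value that neither hairpin shows. Over the alternatives its adjusted p ran from 0.0081 to 0.22, and it was called without either knockout control library. JUN was at -0.21 (adjusted p 0.46) and was called without replicate 2 of the knockout control (-0.31, adjusted p 0.030).

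Of 35 other immediate early genes 33 were tested. Against scramble 10 fell and 4 rose with shRNA 1, beside 5.01% of all tested genes called lower and 4.40% higher (median log2 fold change -0.25, beside 0.0038 over all genes). With shRNA 2, 4 fell and 3 rose, beside 4.15% and 3.58% (median -0.02, beside -0.0035). HBEGF, an EGF receptor ligand gene, had 6.94 CPM with shRNA 1 and 8.68 CPM with shRNA 2 against 14.5 CPM in scramble, and fell by 1.07 (adjusted p 0.0032) and by 0.74 (adjusted p 0.018). Neither hairpin was called for HBEGF against vector, where shRNA 1 gave -0.18 (adjusted p 0.56) and shRNA 2 gave 0.14 (adjusted p 0.61), while scramble was 0.89 above vector (adjusted p 0.0033). CYR61, a matrix-associated growth regulator gene, fell by 0.66 (adjusted p 9.2e-04) and by 0.39 (adjusted p 0.018). TIPARP, a gene of the poly-ADP-ribose polymerase family, fell by 0.78 with shRNA 1 against scramble (adjusted p 0.0048). Against vector TIPARP was at -0.09 with shRNA 1 (adjusted p 0.71). KLF10, a TGF-beta-induced zinc finger gene, rose by 0.58 (adjusted p 0.0012) with shRNA 1 and by 0.78 (adjusted p 2.3e-04) with shRNA 2, and MCL1, a BCL2 family survival gene, by 0.49 (adjusted p 0.0026) and 0.55 (adjusted p 0.0016). RHOB, a small GTPase gene, rose by 0.76 with shRNA 1 (adjusted p 0.0011). ZFP36L1, an RNA-binding protein gene, fell by 0.35 with shRNA 2 (adjusted p 0.026). Without any 1 of the compared libraries the genes that fell with shRNA 1 numbered 4 to 6 of the 33.

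Against vector the same list had 6 rising and 4 falling with shRNA 1 (median -0.12) and 11 rising and 7 falling with shRNA 2 (median 0.14), beside 13.0% and 21.0% of all tested genes called. CYR61 had 670 CPM with shRNA 1 and 806 CPM with shRNA 2 against 1556 CPM in vector, and fell by 1.22 (adjusted p 1.8e-05) and by 0.95 (adjusted p 2.0e-05). PHLDA1, a MAPK-responsive gene, rose by 0.60 (adjusted p 4.7e-04) and by 1.19 (adjusted p 2.2e-06), with 982 CPM and 1476 CPM against 646 CPM. Scramble, at 1185 CPM, was itself 0.88 above vector (adjusted p 2.3e-05), and PHLDA1 fell by 0.27 with shRNA 1 against scramble (adjusted p 0.042). CTGF, a matricellular growth factor gene, fell by 0.89 (adjusted p 1.5e-04) and by 0.72 (adjusted p 2.1e-04). In scramble against vector CYR61 was also lower, by 0.56 (adjusted p 0.0011), and CTGF by 0.38 (adjusted p 0.016). PPP1R15A, a stress-induced phosphatase subunit gene, fell by 0.55 with shRNA 1 (adjusted p 0.015). KLF10 rose against vector by 0.55 with shRNA 1 (adjusted p 0.0012) and by 0.74 with shRNA 2 (adjusted p 5.5e-05). MCL1 rose likewise by 0.34 (adjusted p 0.013) and by 0.40 (adjusted p 0.0032). Scramble was not called apart from vector for KLF10 (-0.03, adjusted p 0.85) or MCL1 (-0.15, adjusted p 0.22). NR4A3, an orphan nuclear receptor gene, rose by 1.62 with shRNA 2 (adjusted p 0.0011) and was lower by 1.48 with shRNA 1 than with shRNA 2 (adjusted p 0.0045), and scramble was 1.35 above vector (adjusted p 0.0052). ZFP36L2, an RNA-binding protein gene, was lower than in vector by 0.46 with shRNA 2 (adjusted p 0.0020) and by 0.45 in scramble (adjusted p 0.0034). NAB2, a corepressor gene that EGR1 is known to induce, fell by 0.45 with shRNA 1 against vector (adjusted p 0.020) and was lower by 0.69 with shRNA 1 than with shRNA 2 (adjusted p 0.0020). In shRNA 1 against shRNA 2, 2 of the 33 were higher and 7 lower, beside 14.3% of all tested genes called. In scramble against vector 10 were higher and 6 lower, beside 15.3%, among them NR4A2 (1.48, adjusted p 8.6e-04), SGK1 (0.71, adjusted p 0.0010) and GADD45B (-0.99, adjusted p 0.0030). In the knockout comparison edgeR called 0 of the 33 (median -0.04) and DESeq2 1, beside 2 and 23 of all tested genes. At an unadjusted p below 0.05 there were 7, beside 859 of the 13365 tested genes. KLF10 (-0.60, adjusted p 0.022) and MCL1 (-0.52, adjusted p 0.034) were called in the knockout effect minus the mean hairpin effect.

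Of 29 AP-1 target genes, known from other cells and of which 24 were tested, 7 fell and 0 rose with shRNA 1 against scramble (median -0.16), and 3 fell and 5 rose with shRNA 2 (median 0.05), beside 9.41% and 7.74% of all tested genes called. CCND1, the cyclin D1 gene, had 273 CPM with shRNA 1 and 367 CPM with shRNA 2 against 470.2 CPM in scramble, and fell by 0.78 (adjusted p 1.6e-04) and by 0.36 (adjusted p 0.015). Against vector CCND1 was at 0.13 with shRNA 1 (adjusted p 0.28) and rose by 0.56 with shRNA 2 (adjusted p 3.3e-04), and scramble was 0.92 above vector (adjusted p 1.9e-05). The chemokine gene CXCL8 had 89.8 CPM with shRNA 1 against 183 CPM in scramble and fell by 1.03 (adjusted p 5.8e-04). The cytokine gene IL6 fell by 1.02 (adjusted p 9.9e-04) and the chromatin protein gene HMGA2 by 0.77 (adjusted p 4.7e-04) with shRNA 1. Against vector the direction was the opposite: with shRNA 1 CXCL8 rose by 1.01 (adjusted p 4.7e-04), IL6 by 1.03 (adjusted p 0.0012) and HMGA2 by 0.64 (adjusted p 9.7e-04). With shRNA 2 the angiogenic factor gene VEGFA rose by 0.53 (adjusted p 9.8e-04), the collagenase gene MMP1 by 0.77 (adjusted p 0.0058) and the urokinase gene PLAU by 0.49 (adjusted p 0.026), while the glutathione synthesis gene GCLM fell by 0.62 (adjusted p 0.013) and the laminin gene LAMB3 by 0.36 (adjusted p 0.042). Against vector LAMB3 rose by 0.62 with shRNA 2 (adjusted p 8.6e-04).

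Against vector the target list had 8 of 24 rising and 1 falling with shRNA 1 (median 0.20), beside 5.78% of all tested genes called higher and 7.26% lower. With shRNA 2, 14 rose and 1 fell (median 0.68), beside 9.21% and 11.7%. In scramble 12 were higher and 1 lower (median 0.86, beside -0.0006 over all genes), beside 7.10% and 8.16%. The cytokine gene IL11 rose by 1.21 with shRNA 1 (adjusted p 1.1e-04) and was 1.19 higher in scramble (adjusted p 5.2e-05). The collagenase gene MMP13 had 104 CPM with shRNA 1 and 96.2 CPM in scramble against 34.6 CPM in vector, and was higher by 1.59 (adjusted p 2.2e-05) and by 1.48 (adjusted p 1.5e-05). CXCL8 had 238 CPM with shRNA 2 against 44.4 CPM in vector and rose by 2.42 (adjusted p 5.7e-07). Scramble, at 183 CPM, was itself 2.04 above vector for CXCL8 (adjusted p 3.0e-06). The antioxidant gene HMOX1 fell by 0.56 with shRNA 1 (adjusted p 0.033) and was 0.72 lower in scramble (adjusted p 0.0075). Markers of fibroblasts and mesenchymal cells, 15 genes of which 1 is also on the target list, had summed levels of 57861 to 60647 CPM with shRNA 1, 56829 to 57512 CPM with shRNA 2 and 51781 to 51997 CPM in scramble, against 44347 to 44655 CPM in vector. Much of these sums is FN1, at 22130 CPM with shRNA 1, 24722 CPM with shRNA 2 and 18680 CPM in scramble, against 10105 CPM in vector. VIM was at 15459, 13432 and 13738 CPM in the same order, against 16373 CPM in vector. Of the 15, 8, 8 and 7 were called higher in these groups and 2, 3 and 2 lower, and their part in the list's difference was not tested. Between the hairpins 1 target was higher and 11 were lower with shRNA 1, beside 7.07% and 7.21% of all tested genes. In the knockout edgeR and DESeq2 called 0 of the 24 (median -0.02), beside 2 and 23 of all tested genes. At an unadjusted p below 0.05 there were 7, beside 859 of the 13365 tested genes. In the knockout effect minus the mean hairpin effect HMGA2 (0.66, adjusted p 0.023) and CCND1 (0.52, adjusted p 0.034) were called. HMGA2 had 285 CPM with shRNA 1, 486 CPM with shRNA 2 and 484 CPM in scramble. Its mean hairpin effect is thus a value that neither hairpin shows.

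**Figure D5:**
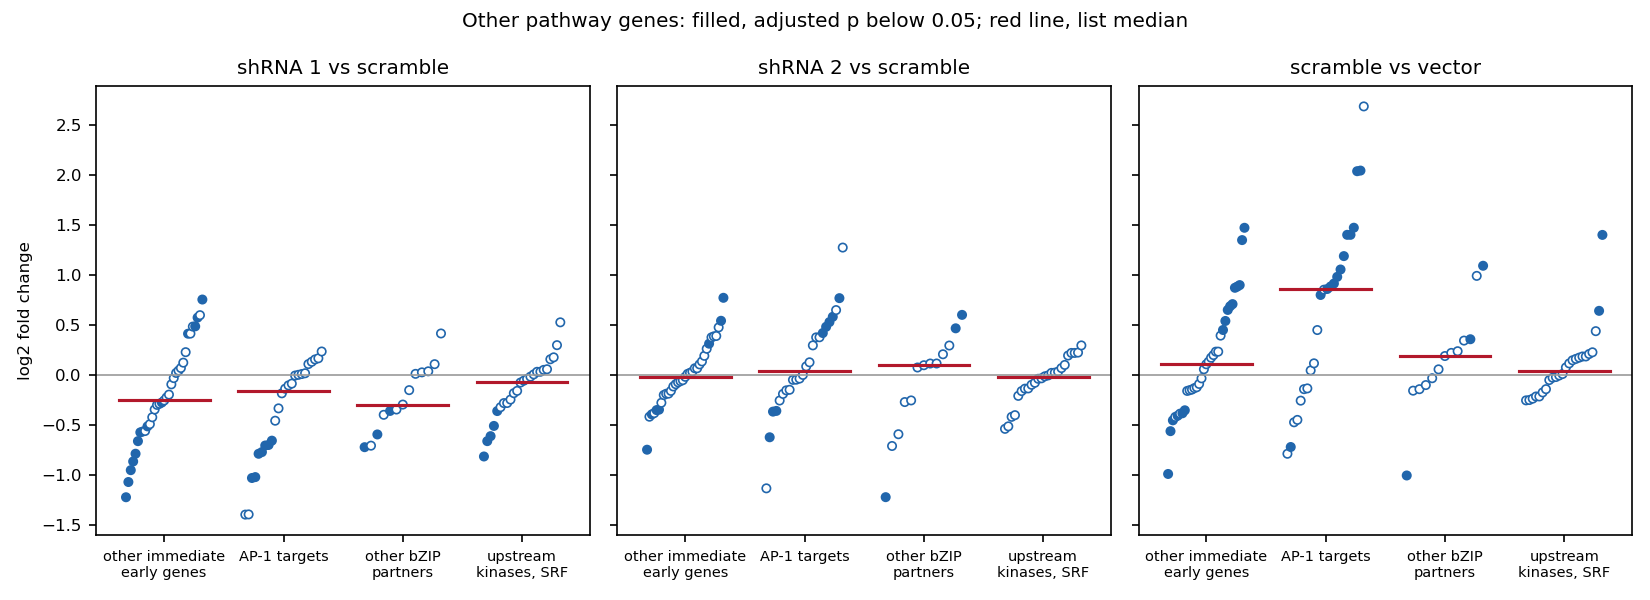
log2 fold change (y axis) of each tested gene of 4 other pathway lists (x axis), sorted within its list, in shRNA 1 and shRNA 2 against scramble and in scramble against vector; filled points have an adjusted p below 0.05 and red lines are list medians. The AP-1 target median is -0.16, 0.05 and 0.86 in the 3 panels.

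Among other bZIP partners, 13 of 16 tested, 3 fell and 0 rose with shRNA 1 against scramble (median -0.29) and 1 fell and 2 rose with shRNA 2 (median 0.10), beside 9.41% and 7.74% of all tested genes called. The small Maf genes MAFF and MAFG, which encode dimer partners without an activation domain, fell with shRNA 1 by 0.72 (adjusted p 0.0011) and by 0.36 (adjusted p 0.027), and NFE2L1, a cap'n'collar factor gene, by 0.59 (adjusted p 0.0010). With shRNA 1 against vector MAFF was at -0.36 (adjusted p 0.033), MAFG at -0.13 (adjusted p 0.36) and NFE2L1 at -0.74 (adjusted p 1.6e-04). With shRNA 2 against vector MAFF rose by 0.57 (adjusted p 0.0014) and MAFG by 0.52 (adjusted p 0.0013). NFE2L1 fell by 0.40 there (adjusted p 0.0032). With shRNA 2 against scramble, ATF7 rose by 0.60 (adjusted p 0.0055) and CREM by 0.47 (adjusted p 0.030), both genes of cyclic AMP element binding proteins, and CREB5 fell by 1.22 (adjusted p 0.0018). Against vector CREB5 was at -0.12 with shRNA 2 (adjusted p 0.69), and scramble was 1.10 above vector (adjusted p 0.0012). JDP2, the gene of a Jun dimerisation partner that represses AP-1, had 23.4 CPM with shRNA 1, 14.6 CPM with shRNA 2 and 17.6 CPM in scramble against 35.2 CPM in vector, and was lower by 0.58 with shRNA 1 (adjusted p 0.043), by 1.27 with shRNA 2 (adjusted p 3.7e-04) and also in scramble (adjusted p 0.0022). Against vector 2 partners rose and 3 fell with shRNA 1 (median -0.13), 4 rose and 2 fell with shRNA 2 (median 0.16), and 2 were higher and 1 lower in scramble (median 0.19), beside 13.0%, 21.0% and 15.3% of all tested genes called. Between the hairpins 2 were higher and 5 lower with shRNA 1 (median -0.34), beside 14.3%. In the knockout 0 of 13 were called by edgeR or DESeq2, beside 2 and 23 of all tested genes. At an unadjusted p below 0.05 there were also 0, beside 859 of the 13365 tested genes.

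Of the upstream kinases and the SRF module, 24 of 25 tested, 5 fell and 0 rose with shRNA 1 against scramble, beside 5.01% of all tested genes called lower and 4.40% higher, and the list median was -0.06. SRF itself had 51.3 CPM with shRNA 1 against 80.9 CPM in scramble and fell by 0.66 (adjusted p 0.0027). The stress kinase genes MAP3K5 and MAP2K3 fell by 0.81 (adjusted p 0.0042) and by 0.61 (adjusted p 0.019). Against vector MAP3K5 rose by 0.59 with shRNA 1 (adjusted p 0.020), and scramble was 1.40 above vector (adjusted p 5.5e-05). MAP2K3 was at -0.39 with shRNA 1 against vector (adjusted p 0.084) and was not called. The MAPK phosphatase gene DUSP1 had 20.8 CPM with shRNA 1 against 29.5 CPM in scramble and fell by 0.51 (adjusted p 0.034; 0.056 with the replicate block and 0.083 to 0.25 without any 1 of the 4 libraries). For DUSP1, shRNA 1 against vector gave -0.28 (adjusted p 0.20), which was not called. With shRNA 2 against scramble 0 of the 24 were called by edgeR or DESeq2, beside 7.74% of all tested genes called by edgeR. At an unadjusted p below 0.05 there were 8, beside 2890 of the 13365 tested genes. DUSP1 was at -0.16 (adjusted p 0.54). SRF was lower with shRNA 1 than with shRNA 2 by 0.65 (adjusted p 0.0020) and lower than in vector by 0.47 (adjusted p 0.012), and ELK1, an SRF partner gene, was lower with shRNA 1 than with shRNA 2 by 0.50 (adjusted p 0.0026). Of the ribosomal S6 kinase genes, RPS6KA1 was lower with shRNA 1 than with shRNA 2 by 0.45 (adjusted p 0.034), and RPS6KA3 was 0.64 higher in scramble than in vector (adjusted p 0.038). MAPK8, the JNK1 gene, was 0.45 higher with shRNA 1 than with shRNA 2 (adjusted p 0.028). In the knockout 0 of the 24 were called by edgeR or DESeq2, beside 2 and 23 of all tested genes. At an unadjusted p below 0.05 there was 1, beside 859 of the 13365 tested genes. DUSP1 was at -0.27 (adjusted p 0.77).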

How the data were processed

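The authors sequenced libraries made with an mRNA kit, per the labels' protocols, and deposited a table of whole-number read counts per gene and library. Per the submitters' processing notes, reads were demultiplexed with bcl2fastq and aligned to hg19 with STAR 2.5; annotation and strand setting are not stated in those notes or the labels. The counts were filtered with filterByExpr of edgeR 4.0.16 (minimum count 10), which left 13365 of 25435 genes, FOSB among them through 4 of 12 libraries. They were normalised with TMM and fitted with the quasi-likelihood F test over all 12 libraries (6 residual degrees of freedom) under R 4.3.3, with limma 3.58.1 loaded. Benjamini-Hochberg adjustment ran over all tested genes, with calls at 0.05. The SE is the log2 fold change divided by the root of F. DESeq2 1.42.0, other size factors and filters, fewer libraries, a replicate block and leaving out each library were alternatives, and the scripts were tested on simulated counts. Levels per kilobase use principal transcript lengths of GENCODE v29 and promoter windows are from RefSeq. All 10 genes were named; of 4 other pathway lists, up to 4 called genes per direction and comparison with the smallest adjusted p, and DUSP1 always. For genes called in a hairpin comparison, the 3 most similar genes by r were also named. The 10 genes and the lists were chosen with earlier results of these data known. The targeted transcript, and a few genes within these rules, are not reported here.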

Additional observations from a re-analysis of the deposited data

Results flagged for a closer look

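The 2 hairpins are both labelled as removing mutant p53, and their effects differed in the direct comparison of shRNA 1 with shRNA 2 for 5 of the 10 genes, beside 14.3% of all tested genes called; this difference is what set these results apart. The log2 difference was -1.37 for EGR1, -0.90 for IER3, -0.45 for FOSL2 and -0.44 for JUNB, and 0.48 for JUN. Since both hairpins share the scramble and vector libraries, this contrast is also the difference between their effects against either control. The JUNB call was lost without any 1 of the 4 libraries, the JUN call without 3 of them and the FOSL2 call without replicate 1 of either hairpin, while EGR1 and IER3 were called each time.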

How the results depend on the processing

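No called value of the 10 genes reversed under any alternative. Members called in a fit on the 8 knockdown-arm libraries alone numbered 6 (shRNA 1 against scramble), 5 (shRNA 2 against scramble), 6 (shRNA 1 against vector) and 7 (scramble against vector), and in fits on only the compared libraries 6, 6, 7 and 7; the cause was not tested. In the knockout effect minus the mean hairpin effect 1 member, EGR1, was called with no filter, with a minimum count of 50 and with DESeq2. Without any 1 library the members called numbered 0 to 3 in the knockout comparison, 1 to 2 for shRNA 1 and 0 to 0 for shRNA 2 against scramble, 1 to 2 for shRNA 1 and 3 to 3 for shRNA 2 against vector, 2 to 3 between the hairpins, 3 to 3 in scramble against vector and 0 to 2 in the difference of effects. Replicate numbers do not pair the libraries: same-numbered libraries deviated together (r over 0.1) in 2 of 15 group pairs, with r from -0.469 to 0.156. The r of -0.469 was between p53 knockout and knockout control, whose same-numbered libraries tended to deviate in opposite directions. With the replicate number as a block, shRNA 2 against scramble had 0 members called, and the other comparisons at most 1 fewer than without it. Over all genes, calls in the knockout comparison were 2, against 23 with DESeq2, 64 with no filter, 0 with only the compared libraries, 1 with the block and 1 to 4135 without any 1 library. In the difference of effects they were 147, against 234 with DESeq2, 505 with no filter, 60 with the block, 53 with only the compared libraries and 25 to 3342 without any 1 library. In shRNA 1 against scramble they were 1258, against 4304 with the knockdown arm alone and 340 to 397 without any 1 library, and in shRNA 2 against scramble 1034, against 4091 and 235 to 275. In the same order they were 1742, 5283 and 496 to 641 for shRNA 1 against vector, 2801, 6066 and 1399 to 1447 for shRNA 2 against vector, 1909, 5038 and 682 to 799 between the hairpins, and 2039, 5462 and 879 to 921 for scramble against vector. Fits on only the compared libraries called 3920 to 6313 genes in these 6 comparisons. Depth limits FOSB (5 to 18 counts a library) and FOS (19 to 86).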
